A study of Mus musculus with 24 samples.

Results

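Skeletal muscle of mice carrying a pancreatic tumour was compared with skeletal muscle of sham-operated mice, gene by gene, from 4 RNA-seq libraries of each. The libraries were chosen by their labels, 8 of the 24 of the series. KPC mice were male C57BL/6J mice implanted orthotopically with cells of the pancreatic cancer line KPC32908 and given vehicle. Control mice were male C57BL/6J mice that had sham surgery and are labelled as untreated. KPC is the usual name of a genetic mouse model of pancreatic cancer, and all tumours here came from 1 cell line. The labels of the control libraries also carry the name of the line, although the series describes those mice as sham-operated. The comparison covers the implantation, the tumour and the vehicle together, and their parts cannot be told apart. The sources used here do not give the muscle that was taken, the age of the mice or the time after implantation. Each library's title has a number of its own, read here as the animal, and the p-values measure only the spread between these libraries. 4 muscle libraries of KPC mice treated with gemcitabine and nab-paclitaxel entered the gene filter, the scaling and the estimate of the spread. They were not themselves compared.

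Cachexia is the wasting of muscle and fat that accompanies many cancers, pancreatic cancer above all. A muscle fibre loses protein when breakdown exceeds synthesis. Ubiquitin ligases mark proteins for the proteasome, and autophagy delivers proteins and organelles to the lysosome. FoxO transcription factors, glucocorticoids, cytokines of the interleukin-6 family and ligands of the myostatin and activin type are known to turn these routes on in muscle, while insulin and IGF-1 act through Akt and mTORC1 to oppose them. Bulk muscle RNA comes mostly from the nuclei of fibres, with a smaller part from fibroblasts, vessels, nerve and immune cells.

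The libraries held 26031716 to 27382432 counts in KPC muscle and 19211505 to 26209388 in control muscle, in a table of 14537 genes. The 8 genes fixed as markers of skeletal muscle, among them Acta1, Ckm and Myh4, summed to 120629.9 to 212665 CPM (counts scaled to library size) in KPC muscle and 130976 to 174243 CPM in control muscle. Cardiac genes were near 0: Myh6 lay between 0.207 and 1.79 CPM in KPC muscle and between 1.32 and 2.18 CPM in control muscle, and Nppa had no count in any of the 8. Of 14 epithelial and pancreatic genes, 5 had enough counts to test and none differed, with a summed level of 1.67 to 5.07 CPM in KPC muscle and 0.534 to 4.52 CPM in control muscle. 1 KPC library stood apart. On the first component of the 8 libraries, which held 72.9% of the variance of log2 CPM, KPC 1 lay at -11.5, the other 3 KPC libraries at 57.5 to 84.3 and the 4 controls at -56.4 to -40.0. Over the 3336 genes that differed at least 2-fold without it, KPC 1 showed a median 30.4% of the change seen in KPC 2 to 4. These genes were chosen by their difference in KPC 2 to 4, so the share in KPC 1 is lowered in part by the choice. For each gene described in detail the 4 values of a group are given in the order of its replicates, 1 to 4, and results that depend on KPC 1 are given with and without it.

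Of 12760 genes with enough counts to test, 6336 differed between KPC and control muscle at an adjusted p under 0.05, which is 49.7% of those tested. In KPC muscle 3512 genes (27.5%) were higher and 2824 (22.1%) lower, and at least 2-fold differences made up 7.8% of tested genes on the higher side and 10.8% on the lower side. The 4 KPC libraries lay wholly outside the range of the 4 controls for 37.2% of genes, 19.8% above and 17.4% below. A list of genes is read below against these shares. Without KPC 1 the count was 7993, with 4069 higher and 3924 lower, and 6228 genes passed both times. Scaling by library totals in place of TMM moved the median log2 fold change over the table to -0.17 and the split to 2308 higher and 4064 lower, so a direction below holds relative to the bulk of genes. The TMM factor was 0.8499 for KPC 1, 0.9123 to 0.9383 for KPC 2 to 4 and 0.9943 to 1.043 for the controls. A smaller factor raises every CPM of its library. Where KPC 1 leads or trails by a small margin, its rank therefore depends on this scaling.

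Among genes whose groups did not overlap and whose higher group averaged at least 2 CPM, the largest rise was that of Doc2b, which encodes a calcium sensor for vesicle release. It had 4.04, 109.8, 20.9 and 28.2 CPM in KPC 1 to 4, against 0.254, 0.146, 0.271 and 0.263 CPM in control 1 to 4, a log2 fold change of 7.40 ± 1.05 (SE; adjusted p = 0.000416, edgeR). Next came the metallothionein gene Mt2, whose product binds zinc and copper, as does that of Mt1. Mt2 had 13.9, 314, 86.6 and 101 CPM in the KPC libraries, against 2.08, 0.971, 2.12 and 1.32 CPM in the controls, a log2 fold change of 6.31 ± 1.15 (SE; adjusted p = 0.00115, edgeR). Mt1 had a log2 fold change of 5.13 (SE 0.84). The other 9 of the 12 largest rises were Lcn2, an iron-scavenging acute phase protein (5.78), Ddit4, an inhibitor of mTORC1 (5.16), Il6ra, the interleukin-6 receptor (4.70), the transcription factor Cebpd (4.60), the potassium channel subunit Kcnv2 (4.28), the acyl-CoA thioesterase Acot1 (4.17), the zinc importer Slc39a14 (3.95), Trim63 (3.92) and Gnmt, a methyltransferase of glycine (3.90; all log2 fold changes). For each of these genes every KPC library was above every control, and KPC 1 was the lowest KPC library. The 12 largest falls by the same rule were C1qtnf3 (-5.29), Tmem119 (-5.14), Fam167a (-4.73), the collagen genes Col3a1 (-4.65), Col11a1 (-4.51), Col1a1 (-4.50) and Col1a2 (-3.81), the corneal and tendon proteoglycan Kera (-4.32), the elastic fibre gene Mfap4 (-4.18), the vascular peptide gene Apln (-4.15), the matricellular gene Postn (-4.12) and the tendon gene Tnmd (-3.74; all log2 fold changes). No fold is given without KPC 1 for Fam167a, which had no count in KPC 2 to 4, and for Kera, which had at most 1 count in each of them. Fitted without KPC 2, the data gave log2 fold changes of 6.21 for Doc2b, 5.38 for Mt2, 4.33 for Mt1, 5.18 for Lcn2, 4.11 for Il6ra, 2.98 for Acot1 and 3.00 for Slc39a14. The fit without control 3 gave log2 fold changes of -3.71 for C1qtnf3, -4.53 for Tmem119, -4.07 for Fam167a, -3.99 for Col3a1, -3.80 for Col1a1, -3.73 for Kera, -3.24 for Mfap4, -2.67 for Postn and -2.98 for Tnmd. With KPC 1 left out there were log2 fold changes of -5.46 for Col3a1, -5.37 for Col1a1, -4.48 for Col1a2, -5.24 for Mfap4 and -5.42 for Tnmd.

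**Figure D1:**
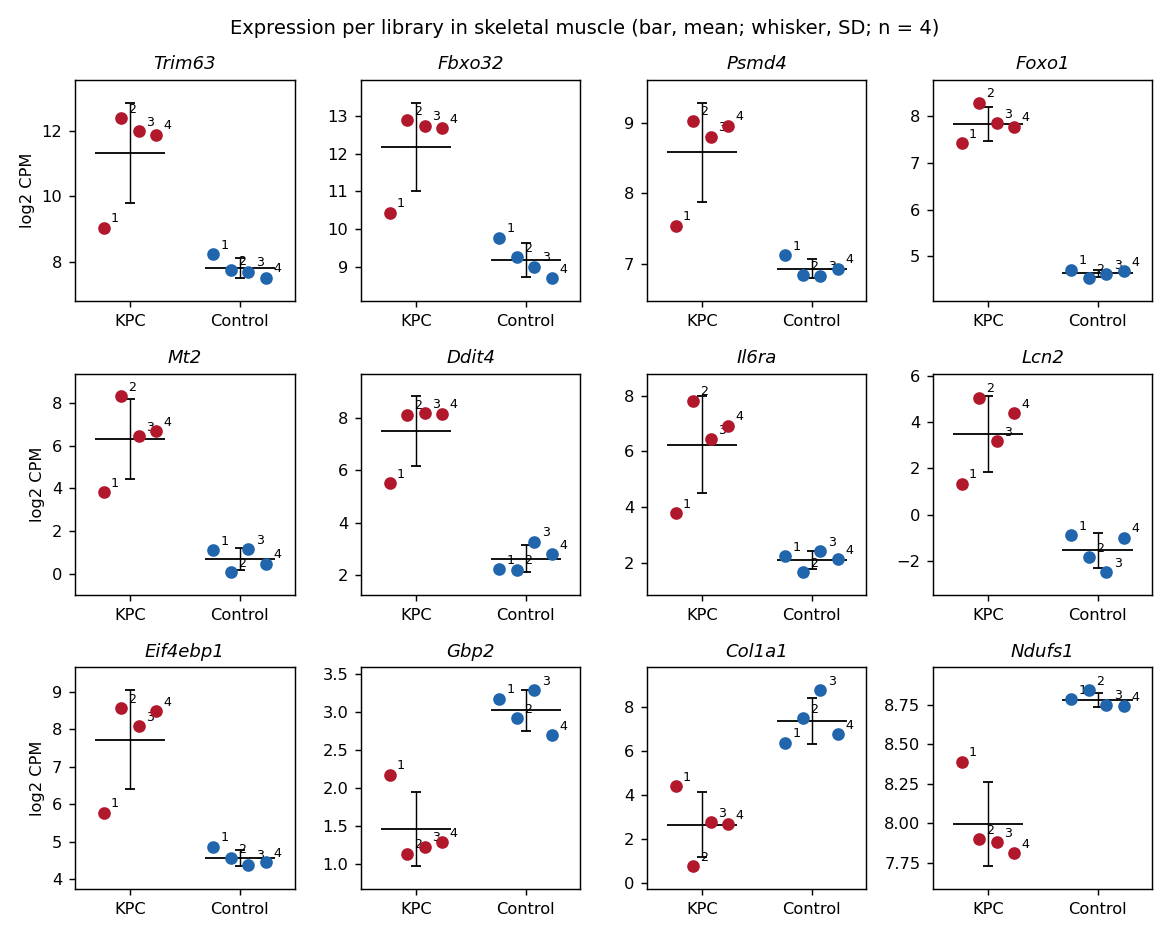
Expression of 12 genes in each library as log2 CPM (y axis, each panel with its own range), with the 4 KPC libraries left of the 4 controls and numbers marking the replicate. KPC 1 is the KPC library nearest to the controls in every panel, as for Trim63, where it has 527 CPM against 3766 to 5355 CPM in KPC 2 to 4.

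The best known ubiquitin ligases of muscle wasting rose in KPC muscle. Trim63 (MuRF1) and Fbxo32 (atrogin-1) encode muscle ubiquitin ligases whose induction is the usual molecular mark of atrophy. Trim63 (chromosome 4, 134315120 to 134329629 on the plus strand of GRCm38) had 527, 5355, 4078 and 3766 CPM in KPC 1 to 4, against 302, 216, 208 and 183 CPM in control 1 to 4. The mean was 3431 ± 2055 CPM in KPC muscle and 227 ± 51.6 CPM in control muscle (SD, n = 4 each), a log2 fold change of 3.92 ± 0.52 (SE; adjusted p = 0.000367, edgeR). Fbxo32 (chromosome 15, 58175879 to 58214932, minus strand) had 1388, 7579.8, 6861 and 6586 CPM in the KPC libraries, against 874, 609, 513 and 412 CPM in the controls, a log2 fold change of 3.22 ± 0.43 (SE; adjusted p = 0.000367, edgeR). For both genes KPC 1 was above every control and far below KPC 2 to 4. The 250 bases before the start of Trim63 are shown because they hold motifs of 2 regulators, FoxO factors and the glucocorticoid receptor. They run from chr4:134314870-134315119 on the plus strand (RefSeq, GRCm38.p6), with matches to the FoxO motif (GTAAACA, on either strand) and the glucocorticoid receptor motif (GNACA and TGTNC, 3 bases apart) in capitals.
Trim63 promoter: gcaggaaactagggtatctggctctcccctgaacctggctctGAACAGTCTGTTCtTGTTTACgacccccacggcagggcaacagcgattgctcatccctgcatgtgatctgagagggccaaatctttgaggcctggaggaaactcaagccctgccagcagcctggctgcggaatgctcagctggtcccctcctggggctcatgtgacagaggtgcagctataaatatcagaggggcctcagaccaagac
The 2 matches are separated by 1 base. Promoters were at hand for 9713 of the 12760 tested genes. A FoxO match was present in 2.7% of them, a glucocorticoid receptor match in 0.35%, and both in 2 promoters. Among promoters of genes that rose the shares were 2.43% and 0.327%, so neither motif was more frequent there. The 250 bases before the start of Foxo1, also examined, held neither motif. Fbxo32 had no entry in the promoter table and is named only.

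Of 21 ubiquitin ligase genes linked to atrophy, 12 rose and 2 fell, and their summed level was 5466 to 17323 CPM in KPC muscle against 3682 to 4485 CPM in control muscle. Fbxo31, another F-box subunit, had a log2 fold change of 1.71 (SE 0.26). Among 35 tested ubiquitin, E1 and E2 genes 12 rose and 2 fell. The polyubiquitin gene Ubb had 99.1, 308, 236 and 279 CPM in KPC 1 to 4, against 40.7, 39.1, 40.7 and 57.9 CPM in control 1 to 4 (log2 fold change 2.37, SE 0.30). Of 24 deubiquitinase genes 12 rose and none fell, including Usp14, which acts on the proteasome itself (log2 fold change 1.25). Depending on which library was left out, the number that fell ranged from 2 without KPC 2 to 4 without KPC 1 for ubiquitin ligases and from 0 without control 1 to 7 without KPC 1 for ubiquitin, E1 and E2 genes. With library totals as the scale there were 8 higher and 4 lower for ubiquitin ligases, 6 higher and 7 lower for ubiquitin, E1 and E2 genes and 7 higher and 1 lower for deubiquitinases.

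The standard proteasome rose as a whole. All 14 genes of the 20S core, the barrel that cuts proteins, and all 18 of the 19S cap, which unfolds and feeds them in, passed the test in the same direction. The 2 lists had median log2 fold changes of 1.16 and 1.20, with ranges of 0.53 to 1.72 and 0.93 to 1.77, against -0.0026 over all genes. Psmd4, the ubiquitin receptor of the cap, had 186, 526, 449 and 501 CPM in KPC 1 to 4, against 139, 114, 113 and 121 CPM in control 1 to 4, a log2 fold change of 1.77 ± 0.25 (SE; adjusted p = 0.000394, edgeR). Psma7 of the core had 109.8, 329, 245 and 280.3 CPM in KPC muscle, against 83.4, 72.3, 72.2 and 65.7 CPM in control muscle, a log2 fold change of 1.72 ± 0.25 (SE; adjusted p = 0.00044, edgeR). These 2 genes rose most in their lists, and Psmb6 of the core rose least (log2 fold change 0.53, SE 0.10). The median deviation of core genes from the control mean was 0.25, 1.55, 1.20 and 1.32 in KPC 1 to 4 on the log2 scale, and that of cap genes 0.32, 1.47, 1.41 and 1.40. KPC 1 thus shared the direction at a much smaller size. Of 17 tested assembly and regulatory genes 9 rose and none fell, led by Nploc4, an adaptor of the p97 unfoldase (128, 626, 469 and 539.8 CPM in KPC 1 to 4, against 113, 98.9, 94.8 and 111 CPM in control 1 to 4). Nfe2l1, whose protein is known to drive proteasome genes, had 853, 822, 875 and 907 CPM in KPC muscle and 799, 829.7, 803 and 835 CPM in control muscle, ranges that overlap (log2 fold change 0.08 ± 0.11, SE, with an adjusted p of 0.533 from edgeR). Its protein is controlled mainly after translation, which these data do not measure. The antioxidant element TGACNNNGC, bound by NRF1 and NRF2, was found in 5 of 26 promoters of core and cap genes (19.2%) and in 14.2% of all promoters.

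The inducible subunits of the proteasome went the other way. Psmb8, Psmb9 and Psmb10, named after their values were seen, replace the standard catalytic subunits in immune cells and after interferon. They had log2 fold changes of -1.01, -2.03 and -1.0, and of 15 genes of the immunoproteasome and class I antigen presentation 9 fell and none rose. B2m, the light chain of class I molecules, had 49.4, 35.0, 40.3 and 35.2 CPM in KPC 1 to 4, against 69.8, 56.9, 72.6 and 57.5 CPM in control 1 to 4. Every KPC library was below every control. Fitted without KPC 1, the data gave a log2 fold change of -2.85 for Psmb9.

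Autophagy and lysosome genes also rose, less uniformly. Of 41 autophagy genes 28 rose and 4 fell, with a median log2 fold change of 0.66. Map1lc3b, which encodes an LC3 protein of the autophagosome membrane, had 188, 522, 386 and 424 CPM in KPC 1 to 4, against 139.7, 123, 126 and 118 CPM in control 1 to 4 (log2 fold change 1.58 ± 0.23, SE, with an adjusted p of 0.00044 from edgeR). The cargo receptor gene Sqstm1 (p62) had 795, 2357, 2119 and 2212 CPM in KPC muscle, against 642, 572, 556 and 586 CPM in control muscle, with no overlap of the groups. Bnip3, a receptor for mitochondria in autophagy, and Gabarapl1, named after their values were seen, had log2 fold changes of 2.25 and 1.99. Tfeb, a transcription factor of lysosome genes, had 90.9, 120.4, 114 and 134 CPM in KPC muscle, against 57.8, 55.2, 53.8 and 56.5 CPM in control muscle, a narrow spread in both groups with KPC 1 close to the other KPC libraries (log2 fold change 1.04 ± 0.12, SE, with an adjusted p of 0.000307 from edgeR). Of 38 tested lysosomal genes 19 rose and 5 fell. Ctsl, a cathepsin known as an atrophy gene, had 122, 445, 282 and 383 CPM in KPC muscle, against 99.4, 85.3, 92.6 and 82.9 CPM in control muscle, and the cholesterol exporter gene Npc1 had 114, 818, 493 and 602 CPM in KPC muscle, against 91.8, 99.6, 68.8 and 76.4 CPM in control muscle. Ctsk, a cathepsin of matrix-degrading cells named after its values were seen, fell (log2 fold change -2.14). Calpains and caspases, the other proteases examined, mostly did not pass the test. Of 12, 3 rose (Capn2, the shared small subunit Capns1 and the calpain inhibitor Cast, log2 fold changes 0.38, 0.43 and 0.77) and Casp9 fell (-0.84). With each library left out in turn, the number that fell ranged from 1 without control 3 to 4 without KPC 1 for autophagy and from 2 without KPC 2 to 7 without KPC 1 for lysosomal genes. Scaled by library totals the counts were 14 higher and 7 lower for lysosomal genes and 2 higher and 4 lower for calpains and caspases. Excluding control 3 gave a log2 fold change of -1.50 for Ctsk. Among the other settings, the call ended under scaling by library totals for Capn2 (adjusted p = 0.138).

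**Figure D2:**
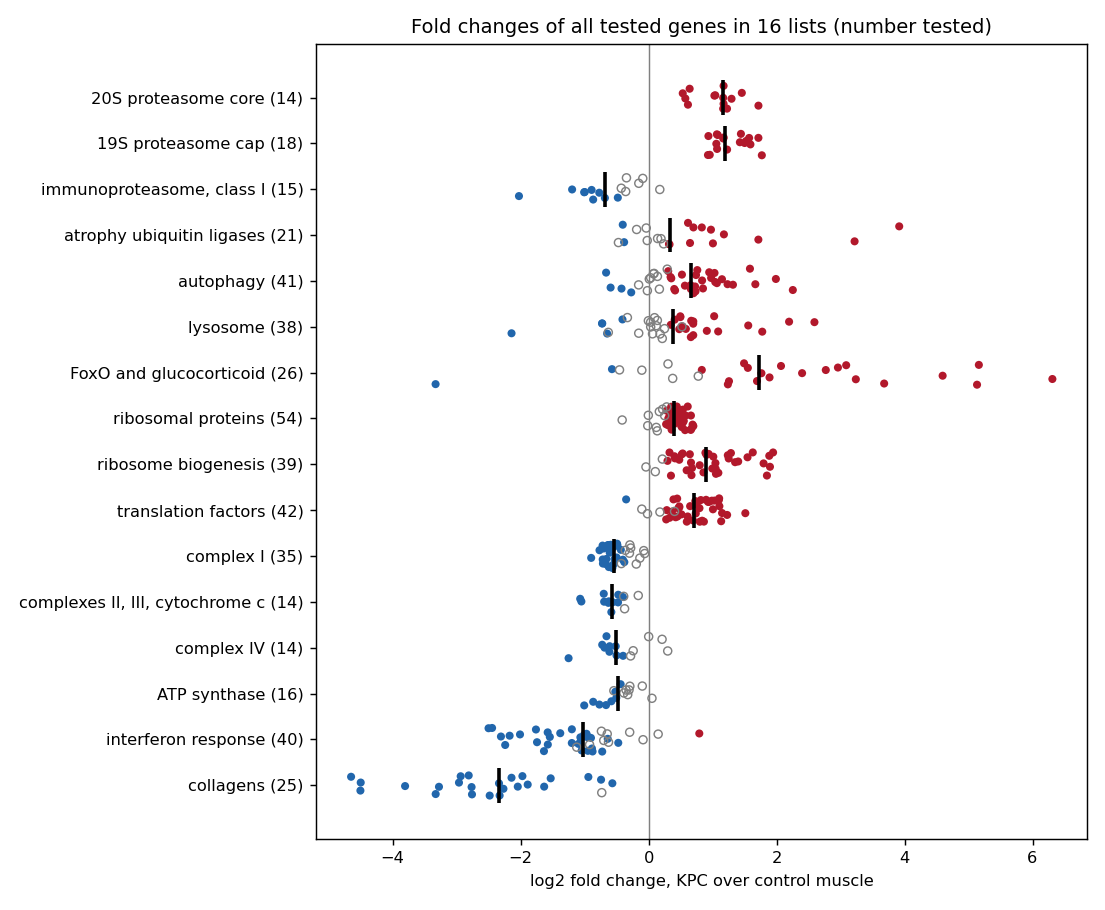
Log2 fold change of KPC over control muscle (x axis) for every tested gene of 16 lists (rows); filled points passed the test, open points did not, and the vertical bar is the median of the list. All 32 core and cap genes of the proteasome lie right of 0, while 24 of 25 collagen genes and 54 of 79 respiratory chain genes are filled and left of 0.

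In a list of FoxO genes, glucocorticoid receptor genes and glucocorticoid-induced genes most members rose. KPC 1 was also clear of the controls for several of them. Of 26 such genes 19 rose and 2 fell, with a median log2 fold change of 1.73, and the median deviation from the control mean was 1.01, 2.38, 1.69 and 1.83 in KPC 1 to 4. Foxo1 itself had 171, 313, 231 and 218 CPM in KPC 1 to 4, against 26.1, 22.9, 24.4 and 25.5 CPM in control 1 to 4, a log2 fold change of 3.24 ± 0.38 (SE; adjusted p = 0.000308, edgeR). Every KPC library, KPC 1 included, was several times above every control. Ddit4 (REDD1), a stress- and glucocorticoid-induced brake on mTORC1, had 45.6, 282, 294 and 288 CPM in KPC muscle, against 4.53, 4.47, 9.53 and 6.81 CPM in control muscle. Glul, the glutamine synthetase gene and a classic glucocorticoid target of muscle, had 1302, 1912, 1682 and 1723 CPM in KPC muscle, against 508, 204, 252 and 292 CPM in control muscle, a log2 fold change of 2.40 ± 0.31 (SE; adjusted p = 0.000341, edgeR). Klf15, a glucocorticoid-induced factor that promotes amino acid breakdown, had 63.3, 179, 127 and 157 CPM in KPC muscle, against 35.5, 29.7, 31.8 and 28.5 CPM in control muscle. Pdk4, a FoxO target outside this list whose product switches off pyruvate dehydrogenase, had 1690.2, 6117, 4529 and 4320.1 CPM in KPC muscle, against 1004, 505, 534 and 402 CPM in control muscle, a log2 fold change of 2.77 ± 0.38 (SE; adjusted p = 0.000372, edgeR). Of the genes that fell, Foxo6, itself a FoxO gene, fell more. It had 1.80, 0.545, 0.450 and 0.372 CPM in KPC muscle, against 6.36, 6.89, 9.62 and 8.77 CPM in control muscle (log2 fold change -3.33 ± 0.39, SE, with an adjusted p of 0.000307 from edgeR). The other was Nr3c2, the mineralocorticoid receptor gene, named after its values were seen (log2 fold change -0.57). With 1 library left out, the test was no longer passed by Nr3c2 in 6 of these fits (at most 0.106, without control 4). The fit without KPC 1 gave a log2 fold change of -4.11 for Foxo6. A call also ended under edgeR on the 8 libraries alone for Nr3c2 (adjusted p = 0.0632).

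Metallothionein genes answer to metals and to glucocorticoids, and Mt2 carried the second largest rise. Its 250 upstream bases are shown because they hold 5 matches to the metal response element (TGCNCNC, either strand, in capitals), at chr8:94172368-94172617 on the plus strand (RefSeq, GRCm38.p6).
Mt2 promoter: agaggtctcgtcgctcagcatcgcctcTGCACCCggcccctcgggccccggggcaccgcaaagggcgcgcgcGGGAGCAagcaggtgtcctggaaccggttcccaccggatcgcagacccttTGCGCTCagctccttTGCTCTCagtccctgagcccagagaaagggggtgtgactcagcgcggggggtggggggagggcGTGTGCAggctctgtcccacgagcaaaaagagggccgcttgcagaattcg
At least 1 match was present in 57.6% of all promoters and at least 5 in 0.607%. The Mt2 stretch held no match to the glucocorticoid receptor motif. Of 27 tested genes of metallothioneins, zinc and iron 8 rose and 6 fell, so the list as a whole did not move one way. Slc39a14 (ZIP14), which imports zinc and iron, had 16.1, 557, 135 and 200.2 CPM in KPC 1 to 4, against 14.5, 13.4, 15.9 and 15 CPM in control 1 to 4. KPC 2 was highest, and KPC 1 barely exceeded the controls. The zinc importer gene Slc39a10 fell (-1.16 on the log2 scale). Tfrc, the transferrin receptor gene that brings iron into cells, named after its values were seen, had 84.1, 11.6, 13.5 and 9.92 CPM in KPC muscle, against 160.2, 286, 170.2 and 265 CPM in control muscle (log2 fold change -2.89 ± 0.60, SE, with an adjusted p of 0.00235 from edgeR). Depending on which library was left out, the number that rose ranged from 4 without KPC 2 to 9 without KPC 1 for zinc and iron genes. Under library totals the split was 4 higher and 10 lower for zinc and iron genes. Fitted without KPC 2, the data gave a log2 fold change of 3.00 for Slc39a14. The fit without KPC 1 gave a log2 fold change of -4.25 for Tfrc.

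Cytokine signalling genes gave a mixed picture. The receptor gene Il6ra had 13.6, 225, 86.4 and 122 CPM in KPC 1 to 4, against 4.58, 3.06, 5.20 and 4.29 CPM in control 1 to 4, a log2 fold change of 4.70 ± 0.63 (SE; adjusted p = 0.000371, edgeR). Of 21 tested genes of interleukin-6 family receptors and STAT3 signalling 8 rose and 2 fell. Lifr, the receptor for leukaemia inhibitory factor, fell, with 72.7, 56.6, 53.1 and 54.5 CPM in KPC muscle, against 107, 107, 98.6 and 105 CPM in control muscle, while Il4ra rose (log2 fold change 1.56). Named after their values were seen, Stat3 had 51.2, 81.4, 82.3 and 85.9 CPM in KPC muscle, against 48.1, 42.8, 51.0 and 49.0 CPM in control muscle, and its feedback target Socs3 had 2.11, 3.27, 4.67 and 5.21 CPM in KPC muscle, against 6.20, 3.45, 3.84 and 1.81 CPM in control muscle. Stat3 passed the test (edgeR adjusted p = 0.003) and Socs3 did not (0.991). Of 9 tested acute phase genes 4 rose and 2 fell. Lcn2 had 2.46, 33, 8.89 and 20.8 CPM in KPC muscle, against 0.458, 0.194, 0.0904 and 0.414 CPM in control muscle, a log2 fold change of 5.78 ± 0.85 (SE; adjusted p = 0.000453, edgeR). Serpina3n, a protease inhibitor of a multigene family, had 3.29, 16.7, 13.3 and 18.1 CPM in KPC muscle, against 0.712, 0.922, 1.72 and 1.73 CPM in control muscle, and Lrg1 had 19.3, 24.1, 19 and 16.1 CPM in KPC muscle, against 6.97, 4.52, 5.51 and 5.12 CPM in control muscle. For Lrg1 KPC 1 was as high as the other KPC libraries. S100a9, a neutrophil gene, was low but higher in KPC muscle (1.40, 0.273, 1.23 and 0.950 CPM in KPC muscle, against 0, 0.146, 0.0904 and 0.0376 CPM in control muscle), and the 4 tested neutrophil genes of 16 listed summed to 2.30 to 4.26 CPM in KPC muscle and 0.583 to 1.18 CPM in control muscle. S100a9 had too few counts in the controls to pass the gene filter there, so it entered through libraries of tumour-bearing mice. Its rise, and that of the sum, is partly set by the filter. The part of neutrophils in the Lcn2 result was not tested. In bulk tissue, fewer or more cells of a type and less or more RNA per cell cannot be told apart. Of 25 tested NF-kappaB genes 9 rose and 5 fell. Nfkbia, the inhibitor that NF-kappaB induces, rose with 28.1, 46.8, 45.9 and 40.3 CPM in KPC muscle, against 15.7, 14.6, 17.3 and 15.6 CPM in control muscle, whereas Tnfaip3 (A20), another induced inhibitor, fell with 2.5, 2.26, 2.05 and 1.36 CPM in KPC muscle, against 6.61, 8.5, 5.96 and 8.17 CPM in control muscle. The groups of both genes were apart, in opposite directions. Among fits with 7 of the 8 libraries, the number that rose ranged from 6 without KPC 2 to 14 without KPC 1 for NF-kappaB genes. Under library totals the split was 7 higher and 4 lower for interleukin-6 and STAT3 genes. Leaving out KPC 2 gave log2 fold changes of 4.11 for Il6ra and 5.18 for Lcn2.

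Growth signalling moved at several levels at once. Mstn, the gene of myostatin, which restrains muscle growth, had 143, 389.7, 273 and 389 CPM in KPC 1 to 4, against 133, 133, 77.8 and 118 CPM in control 1 to 4, a log2 fold change of 1.37 ± 0.33 (SE; adjusted p = 0.0049, edgeR). Inhbb, which encodes an activin subunit and was named after its values were seen, rose (log2 fold change 3.23, SE 0.58), and so did the activin receptor gene Acvr1b (1.89). Smad3, a signal transducer of these ligands also named after its values were seen, had 89.3, 18.6, 20.8 and 14.8 CPM in KPC muscle, against 128, 118, 105 and 112 CPM in control muscle. KPC 1 lay just below the controls and KPC 2 to 4 far below them. Over 36 tested genes of myostatin, activin and BMP signalling 9 rose and 12 fell. Igf1 had 11.6, 16.8, 13.6 and 19.7 CPM in KPC muscle, against 26.3, 36.1, 46.5 and 30.8 CPM in control muscle, a log2 fold change of -1.18 ± 0.21 (SE; adjusted p = 0.00103, edgeR). Of 29 insulin and IGF genes 15 rose and 6 fell. Pik3r1, the regulatory subunit of PI3-kinase, had a log2 fold change of 1.88, and Akt1, named after its values were seen, had 66.5, 306, 188 and 229 CPM in KPC muscle, against 57.3, 58.1, 57.7 and 56.4 CPM in control muscle. Igfbp5, an IGF-binding protein gene of muscle, and Grb14, an inhibitor of the insulin receptor, were likewise named afterwards. Igfbp5 fell to 379.9, 23.6, 41.0 and 37.7 CPM in KPC muscle, against 784, 996, 833 and 711 CPM in control muscle, and Grb14 had a log2 fold change of -2.21. Of 30 tested mTORC1 genes 16 rose and 4 fell, and the named ones include brakes on growth. Eif4ebp1 (4E-BP1), which blocks cap-dependent translation, had 54.9, 380.1, 273 and 357 CPM in KPC muscle, against 29.2, 23.6, 20.9 and 21.9 CPM in control muscle, a log2 fold change of 3.48 ± 0.45 (SE; adjusted p = 0.000361, edgeR), and the leucine sensor gene Sesn1 had 31.1, 323, 212 and 279 CPM in KPC muscle, against 19.8, 16.5, 21.4 and 18.5 CPM in control muscle. Cdkn1a (p21), a cell cycle inhibitor, had 18.1, 257, 74.2 and 97.4 CPM in KPC muscle, against 7.27, 9.52, 16.2 and 7.60 CPM in control muscle, and of 22 tested p53 target genes 14 rose and 3 fell. Gadd45a, also a mark of denervated and fasted muscle, had a log2 fold change of 2.69 (SE 0.35). Over the 8 fits that each left out 1 library, the number that fell ranged from 5 without KPC 3 to 11 without KPC 1 for insulin and IGF genes and from 4 without KPC 2 to 9 without KPC 1 for mTORC1 genes. Library totals as the scale gave 6 higher and 17 lower for myostatin, activin and BMP genes, 11 higher and 10 lower for insulin and IGF genes and 8 higher and 8 lower for mTORC1 genes. With KPC 2 left out there were log2 fold changes of 2.59 for Inhbb and 2.64 for Cdkn1a. Excluding KPC 1 gave log2 fold changes of -2.69 for Smad3, -4.62 for Igfbp5 and -2.83 for Grb14.

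Most genes of the translation machinery were higher in KPC muscle, and for ribosomal protein genes KPC 1 shared the change in full. Of 54 cytosolic ribosomal protein genes 45 rose and none fell, with a median log2 fold change of 0.40. The median deviation from the control mean was 0.51, 0.36, 0.34 and 0.40 in KPC 1 to 4, so that KPC 1 was the highest with TMM scaling. KPC 1 also had the smallest TMM factor (0.8499), which raises its values most, so its lead depends on the scaling. Rpl4 had 808, 833, 792 and 810.5 CPM in KPC 1 to 4, against 543, 531, 475 and 503 CPM in control 1 to 4 (log2 fold change 0.66 ± 0.09, SE, with an adjusted p of 0.000371 from edgeR). These genes have many near-identical pseudogenes, and the sources used here do not give how shared reads were counted. With library totals as the scale, 26 of the 54 rose and the median was 0.23. Of 39 tested genes of ribosome biogenesis and RNA polymerase I 36 rose and none fell (median 0.90), among them Ncl, nucleolin, with 359, 707, 626 and 619 CPM in KPC muscle, against 258, 255, 222 and 245 CPM in control muscle. Of 42 tested initiation and elongation factor genes 37 rose and 1 fell. Eif4b, whose product helps the ribosome scan the message, had 741, 876, 889.7 and 917 CPM in KPC muscle, against 465, 376, 356 and 397 CPM in control muscle, a log2 fold change of 1.10 ± 0.11 (SE; adjusted p = 0.000265, edgeR). The gene that fell was Eif4e, the cap-binding protein, named after its values were seen (101, 69.9, 83.4 and 74.4 CPM in KPC muscle, against 100.0, 112, 100.0 and 107 CPM in control muscle). Of 22 tested cytosolic aminoacyl-tRNA synthetase genes 19 rose and 1 fell. In these 3 lists KPC 1 was the lowest KPC library, with median deviations of 0.39, 1.11, 1.04 and 1.07 in KPC 1 to 4 for ribosome biogenesis, 0.41, 0.81, 0.75 and 0.80 for initiation and elongation factors and 0.33, 0.66, 0.70 and 0.70 for the synthetases. Atf4, a transcription factor of the amino acid stress response, had 253, 516, 459 and 454 CPM in KPC muscle, against 185, 174, 163 and 184 CPM in control muscle, while Ddit3 (CHOP), which acts with ATF4 in that stress response, had 3.77, 3.93, 2.91 and 1.98 CPM in KPC muscle, against 9.91, 8.5, 8.54 and 8.99 CPM in control muscle. Of 31 tested genes of the endoplasmic reticulum 15 rose and 2 fell, and of 14 chaperonin and prefoldin genes 8 rose and none fell. Cytosolic heat shock genes had no common direction, with 10 higher and 9 lower of 34, against 27.5% and 22.1% of all genes. Hsp90ab1, a constitutive HSP90, had 1566, 2762, 2551 and 2809.8 CPM in KPC muscle, against 1268, 1109, 1205 and 1198 CPM in control muscle. The near-identical inducible genes Hspa1a and Hspa1b, named after their values were seen, had log2 fold changes of -1.83 and -3.06, and control 3 stood above the other controls in both (2.75, 3.74, 30.5 and 3.65 CPM for Hspa1b in control 1 to 4). When 1 library was left out in turn, the number that fell ranged from 5 without KPC 3 to 13 without KPC 1 for heat shock genes. Library totals as the scale gave 9 higher and 3 lower for endoplasmic reticulum genes, 5 higher and 1 lower for chaperonin and prefoldin genes and 7 higher and 15 lower for heat shock genes. Leaving out 1 library in turn ended the call of Eif4e in 6 of these fits (at most 0.0928, without control 2) and Hspa1a in 3 of these fits (at most 0.181, without control 3). With control 3 left out there were log2 fold changes of -0.58 for Hspa1a and -1.47 for Hspa1b. A call also ended under limma-trend on log2 FPKM for Hspa1a (adjusted p = 0.0563).

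**Figure D3:**
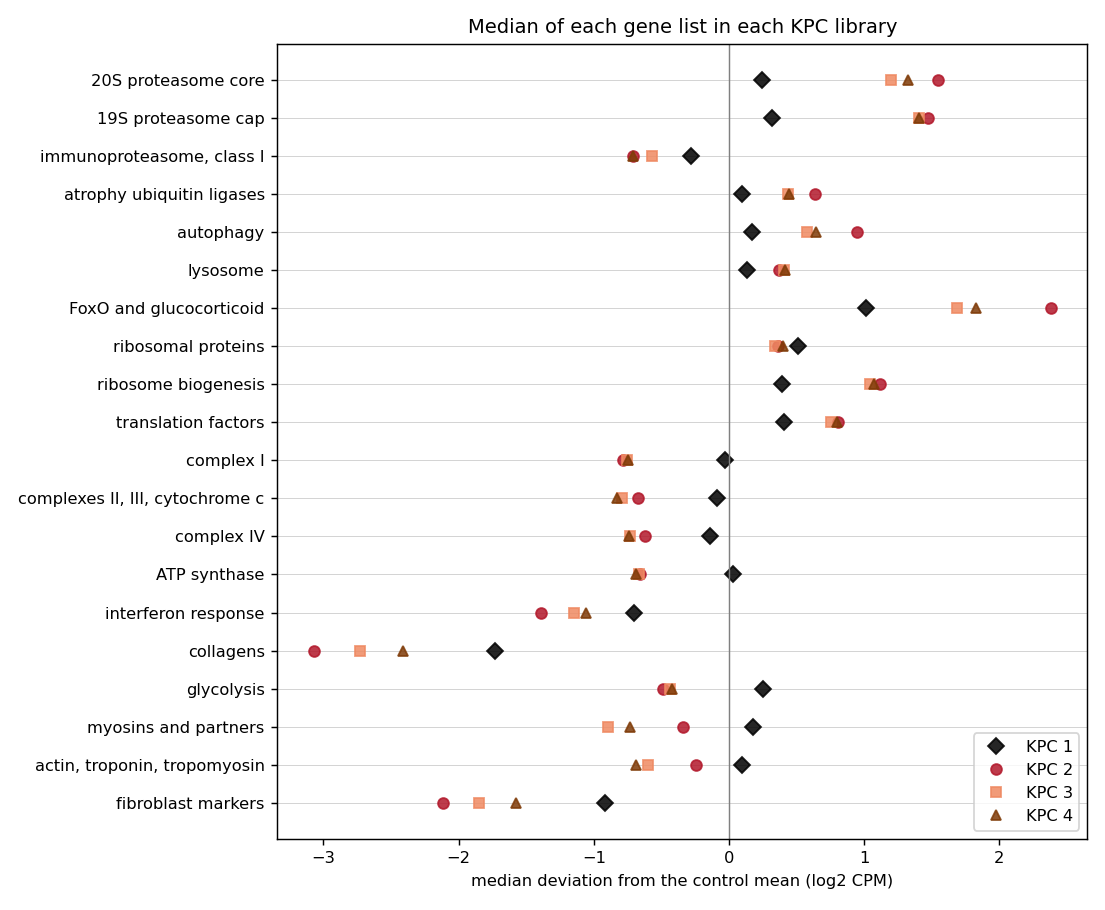
Median deviation from the mean of the 4 controls (x axis, log2 scale) over the tested genes of 20 lists (rows), with 1 point per KPC library. KPC 1 lies near 0 for the respiratory chain and at 0.25 for the 20S core, where KPC 2 to 4 lie at 1.20 to 1.55, but at 0.51 for ribosomal protein genes, where the others lie at 0.34 to 0.40. The values use TMM scaling, on which the lead of KPC 1 for ribosomal protein genes depends.

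Nuclear genes of the respiratory chain fell in KPC 2 to 4. Of 35 tested complex I subunit genes 26 fell, of 14 for complexes II and III with cytochrome c 11, of 14 for complex IV 9 and of 16 for ATP synthase 8, and none of these 79 rose. The median deviation of complex I genes from the control mean was -0.03, -0.78, -0.76 and -0.75 in KPC 1 to 4. Without KPC 1 the numbers that fell were 32, 13, 10 and 14. Ndufs1, the largest subunit of complex I, had 335, 239, 235 and 225 CPM in KPC 1 to 4, against 442, 459, 431 and 429 CPM in control 1 to 4, a log2 fold change of -0.77 ± 0.16 (SE; adjusted p = 0.00202, edgeR). Cycs, cytochrome c, had 235, 109.6, 111 and 98.1 CPM in KPC muscle, against 288, 313, 284 and 278 CPM in control muscle (log2 fold change -1.07 ± 0.24, SE, with an adjusted p of 0.00366 from edgeR), and Cox7a1, the muscle form of a complex IV subunit, had 82.6, 35.9, 37.9 and 34.0 CPM in KPC muscle, against 111, 128, 119 and 96.3 CPM in control muscle. The mitochondrially encoded subunits were not analysed here. Of 19 tricarboxylic acid cycle and shuttle genes 8 fell and none rose, including Mdh1 (-0.90) and Idh3a (-0.77 on the log2 scale). Mitochondrial ribosomal protein genes had no common direction, with 12 higher and 17 lower of 75, against 27.5% and 22.1% of all genes. Ppargc1a, the best known driver of mitochondrial genes, had 41.7, 61.7, 38.8 and 37.6 CPM in KPC muscle and 73.9, 54.3, 46.8 and 47.7 CPM in control muscle, overlapping ranges (edgeR adjusted p = 0.297). Its relatives and partners Ppargc1b, Esrra and Perm1, named after their values were seen, had log2 fold changes of -1.92, -1.28 and -1.76, and their KPC libraries were all below their controls. The third family member, Pprc1, rose (1.01). When 1 library was left out in turn, the number that fell ranged from 11 without KPC 3 to 32 without KPC 1 for complex I, from 4 without KPC 4 to 13 without KPC 1 for complexes II and III, from 4 without KPC 2 to 14 without KPC 1 for ATP synthase, from 4 without KPC 2 to 11 without KPC 1 for the tricarboxylic acid cycle and from 9 without KPC 4 to 27 without KPC 1 for mitochondrial ribosomal proteins. Under library totals the split was 6 higher and 28 lower for mitochondrial ribosomal proteins. The fit without KPC 1 gave log2 fold changes of -2.57 for Ppargc1b and -2.46 for Perm1.

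Genes of fuel use moved in both directions. Of 14 genes of pyruvate dehydrogenase, its kinases and pyruvate transport 3 rose and 4 fell. Dlat and Pdhb, subunits of pyruvate dehydrogenase, and Mpc2, a subunit of the pyruvate carrier, fell (log2 fold changes -0.98, -0.54 and -0.66), while Pdk4 and Pdk2, kinases that switch the enzyme off, rose (2.77 and 0.39). Of 44 genes of fatty acid uptake, oxidation and PPAR signalling 17 rose and 3 fell, against 27.5% and 22.1% of all genes. Plin4, which coats lipid droplets, had 659.9, 1824, 1058 and 1051 CPM in KPC 1 to 4, against 346, 158, 184 and 254 CPM in control 1 to 4, a log2 fold change of 2.29 ± 0.32 (SE; adjusted p = 0.000409, edgeR). Pnpla2, the lipase ATGL, had 336, 1076, 610.1 and 643 CPM in KPC muscle, against 207, 191, 186 and 203 CPM in control muscle. Acot1 and its near-identical neighbour Acot2, the second named after its values were seen, had log2 fold changes of 4.17 and 2.88. Branched-chain amino acid and transaminase genes had 10 higher and 3 lower of 25, with Acadsb (0.88) and Aldh6a1 (0.86) among those that rose. Glycolysis depended on KPC 1. With all 4 KPC libraries 4 genes rose and 3 fell of 25, and without KPC 1 5 rose and 15 fell, the median deviations being 0.25, -0.49, -0.44 and -0.42 in KPC 1 to 4. Pgam2, the muscle phosphoglycerate mutase named after its values were seen, had 1506, 202, 344 and 271 CPM in KPC muscle, against 1310.4, 1507, 1291 and 1396 CPM in control muscle. KPC 1 was among the controls and KPC 2 to 4 below them. Aldoa, the aldolase of muscle, did not pass the test (edgeR adjusted p = 0.349). Among 17 genes of NAD metabolism, Nmrk2, a nicotinamide riboside kinase of muscle, had 31.6, 0.896, 0.942 and 1.65 CPM in KPC muscle, against 29.3, 88.3, 57.7 and 104 CPM in control muscle (log2 fold change -3.00 ± 0.99, SE, with an adjusted p of 0.0243 from edgeR). KPC 1 was again at the level of the lowest control, and without it the log2 fold change was -5.92. Among fits with 7 of the 8 libraries, the number that fell ranged from 3 without KPC 4 to 8 without KPC 1 for the pyruvate dehydrogenase list, from 1 without KPC 3 to 5 without KPC 1 for fatty acid genes, from 1 without KPC 3 to 6 without KPC 1 for branched-chain amino acid genes and from 3 without KPC 2 to 15 without KPC 1 for glycolysis. Library totals as the scale gave 1 higher and 9 lower for the pyruvate dehydrogenase list, 15 higher and 6 lower for fatty acid genes, 6 higher and 4 lower for branched-chain amino acid genes and 3 higher and 11 lower for glycolysis. With 1 library left out, the test was no longer passed by Nmrk2 in 4 of these fits (at most 0.0616, without KPC 4). Conversely the test was passed by Pgam2 without KPC 1 (-2.35, edgeR adjusted p = 1.34e-07). The fit without KPC 2 gave log2 fold changes of 2.98 for Acot1 and 2.07 for Acot2. Among the other settings, the call ended under scaling by library totals for Pdk2 (adjusted p = 0.0815) and edgeR on the 8 libraries alone for Nmrk2 (adjusted p = 0.0518). A call was made under scaling by library totals for Pgam2 (adjusted p = 0.021) and limma-trend on log2 FPKM for Pgam2 (adjusted p = 0.00743).

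Few genes of the contractile apparatus passed the test with all 4 KPC libraries, and more of them fell without KPC 1. Myh4, the myosin heavy chain of the fastest fibres and the most abundant by log2 FPKM of the 4 adult heavy chains, had 79023, 52514, 68756 and 61966 CPM in KPC 1 to 4 and 69027, 52944, 47260.4 and 59503 CPM in control 1 to 4 (log2 fold change 0.20 ± 0.19, SE, with an adjusted p of 0.411 from edgeR). Myh1 and Myh7, of fast and slow fibres, did not pass the test either (log2 fold changes 0.20 and -0.19). Myh2, of fast oxidative fibres, had 1939, 1193, 696 and 1291 CPM in KPC muscle, against 2444, 2484, 2702 and 2199.9 CPM in control muscle, and just missed the threshold (log2 fold change -0.94 ± 0.37, SE, with an adjusted p of 0.0509 from edgeR), although every KPC library was below every control. The mean log2 FPKM of the 4 genes was 13.72, 10.09, 7.96 and 5.15 for Myh4, Myh1, Myh2 and Myh7 in KPC muscle and 13.59, 9.98, 9.05 and 5.46 in control muscle. The heavy chain genes share long stretches of near-identical sequence, so reads between them can be misassigned. The actin gene Acta1 and the creatine kinase gene Ckm did not pass the test (edgeR adjusted p = 0.212 and 0.953). Within KPC muscle the libraries differed. Acta1 had 32712, 13504, 15294 and 17247 CPM in KPC 1 to 4, against 28362, 23206, 23405 and 27656 CPM in control 1 to 4. With TMM scaling KPC 1 was the highest of all 8, a place that depends on its small TMM factor, and KPC 2 to 4 were the lowest. The same order held for Mylpf, the fast regulatory light chain, with 9587, 2858, 4176 and 3924 CPM in KPC muscle, against 7829, 6979, 6211 and 7546 CPM in control muscle, and for the troponin gene Tnnc2, with 9915, 3397, 4813 and 4164 CPM in KPC muscle, against 8259, 7999, 6576 and 7350.4 CPM in control muscle. Of 20 myosin and myosin-binding genes 2 rose and 1 fell with all libraries, and 2 rose and 7 fell without KPC 1. Of 18 actin, troponin and tropomyosin genes the numbers were 3 and 1 with it and 3 and 8 without it. The median log2 fold change was -0.62 for myosin genes and -0.43 for actin, troponin and tropomyosin genes. Without KPC 1 the medians were -0.85 and -0.75. Median deviations from the control mean in KPC 1 to 4 were 0.18, -0.34, -0.90 and -0.73 for myosin genes. For actin, troponin and tropomyosin genes they were 0.10, -0.24, -0.60 and -0.69. Depending on which library was left out, the number that fell ranged from 0 without KPC 2 to 7 without KPC 1 for myosin genes and from 1 without KPC 2 to 8 without KPC 1 for actin, troponin and tropomyosin genes. Scaled by library totals the counts were 1 higher and 8 lower for actin, troponin and tropomyosin genes. A call was gained by Myh2 without KPC 1 (-1.23, edgeR adjusted p = 0.00942), Acta1 without KPC 1 (-0.76, edgeR adjusted p = 0.000458), Mylpf without KPC 1 (-0.98, edgeR adjusted p = 0.000114) and Tnnc2 without KPC 1 (-0.89, edgeR adjusted p = 0.000144). A call was made under RLE scaling for Myh2 (adjusted p = 0.0495), scaling by library totals for Myh2 (adjusted p = 0.0209), DESeq2 for Myh2 (adjusted p = 0.021), limma-trend on log2 FPKM for Myh2 (adjusted p = 0.0405), edgeR on the 8 libraries alone for Myh2 (adjusted p = 0.0196), scaling by library totals for Acta1 (adjusted p = 0.0463) and scaling by library totals for Tnnc2 (adjusted p = 0.0488).

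**Figure D4:**
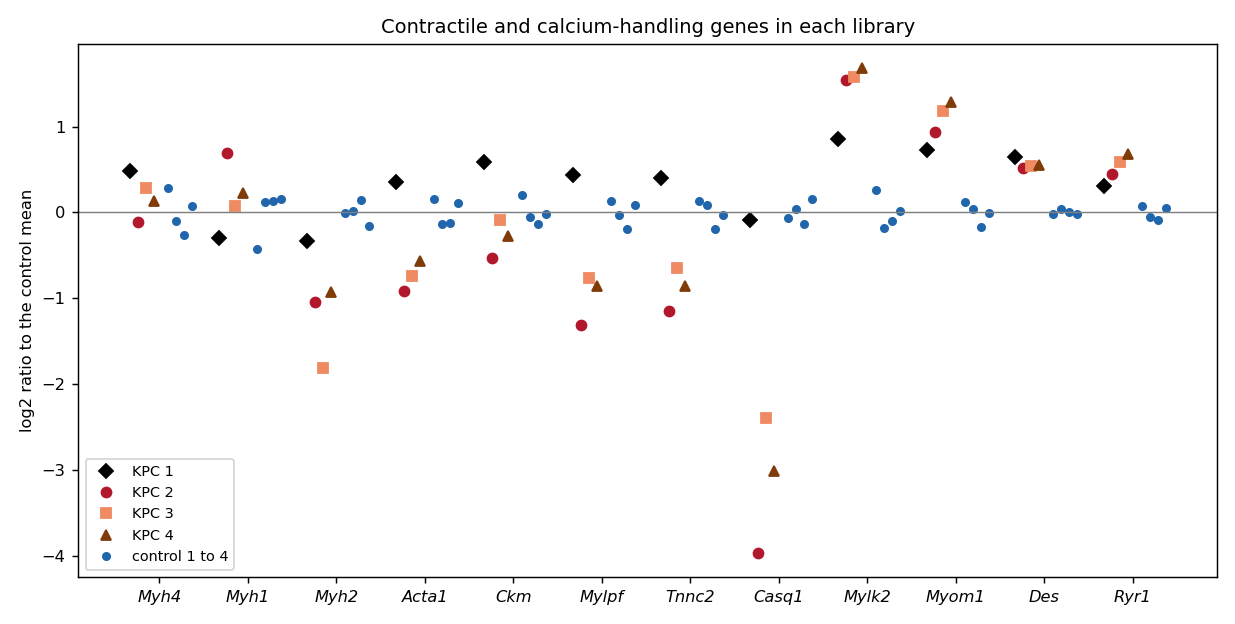
Log2 ratio to the mean of the 4 controls (y axis) for 12 contractile and calcium-handling genes (x axis), with KPC libraries left of controls at each gene and 1 point per library. With TMM scaling, KPC 1 lies at or above the controls for Acta1, Mylpf and Tnnc2 and KPC 2 to 4 below them, whereas all 4 KPC libraries lie above the controls for Mylk2, Myom1 and Ryr1.

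Among scaffold genes of the sarcomere more rose than fell. Of 33 tested Z-disc, M-band and scaffold genes 14 rose and 5 fell. Myom1, which links myosin filaments at the M-band, had 3729, 4308, 5079 and 5472 CPM in KPC 1 to 4, against 2447, 2314, 2000.0 and 2239.7 CPM in control 1 to 4, a log2 fold change of 1.05 ± 0.15 (SE; adjusted p = 0.000392, edgeR). Flnc, filamin C, a Z-disc protein induced by damage and named after its values were seen, had 641, 4346, 2641 and 4843 CPM in KPC muscle, against 750.3, 713, 775 and 826 CPM in control muscle. Des, desmin, had 4780.0, 4403, 4447 and 4504 CPM in KPC muscle, against 3029, 3146, 3064 and 3016 CPM in control muscle, close within each group. Mylk2, the kinase of the fast light chain, had 1409.8, 2269, 2327 and 2496 CPM in KPC muscle, against 934, 687, 725 and 791 CPM in control muscle (log2 fold change 1.44 ± 0.19, SE, with an adjusted p of 0.000341 from edgeR). Ttn, titin, did not pass the test (edgeR adjusted p = 0.261). Of 30 excitation-contraction coupling genes 5 rose and 8 fell. Ryr1, the calcium release channel, and Cacng1, a subunit of the voltage sensor, rose (log2 fold changes 0.51 and 1.25). Casq1, the calcium store protein gene, was named after its values were seen. Casq1 had 2685, 183, 540.1 and 352 CPM in KPC muscle, against 2728, 2927, 2601 and 3181 CPM in control muscle (log2 fold change -1.60 ± 0.61, SE, with an adjusted p of 0.0435 from edgeR). KPC 2 to 4 were far below the controls and KPC 1 was within them, and without KPC 1 the log2 fold change was -3.01. Of 20 tested neuromuscular junction and denervation-responsive genes 5 rose and 5 fell. The receptor kinase gene Musk and the receptor subunit gene Chrnb1 rose (1.29 and 0.61) and the agrin receptor gene Lrp4 fell (-1.80). Myog, which denervation usually raises strongly, had 3.38, 9.16, 4.95 and 2.35 CPM in KPC muscle and 3.20, 4.03, 10.5 and 2.63 CPM in control muscle, overlapping ranges (edgeR adjusted p = 0.961), and Hdac4 did not pass the test (0.384). Of 19 myogenic regulators 3 rose and 7 fell. Pax7, the mark of satellite cells, had 0.790, 0.779, 0.328 and 0.578 CPM in KPC muscle, against 2.69, 1.80, 2.12 and 2.60 CPM in control muscle. Myod1 had 11.4, 3.62, 6.51 and 3.76 CPM in KPC muscle, against 14.8, 17.2, 20.8 and 15.9 CPM in control muscle. Mef2c, which drives contractile genes, had 795, 98.9, 260.4 and 212 CPM in KPC muscle, against 944, 949, 867 and 981 CPM in control muscle, KPC 1 being closest to the controls here too. With each library left out in turn, the number that rose ranged from 9 without control 4 to 14 without KPC 1 for scaffold genes, from 3 without KPC 3 to 5 without KPC 1 for excitation-contraction coupling genes and from 2 without KPC 2 to 5 without KPC 1 for neuromuscular junction genes. Among fits with 7 of the 8 libraries, the number that fell ranged from 1 without KPC 3 to 9 without KPC 1 for scaffold genes and from 3 without KPC 3 to 14 without KPC 1 for excitation-contraction coupling genes. Scaled by library totals the counts were 9 higher and 8 lower for scaffold genes, 3 higher and 14 lower for excitation-contraction coupling genes, 3 higher and 7 lower for neuromuscular junction genes and 2 higher and 10 lower for myogenic regulators. Leaving out 1 library in turn ended the call of Casq1 in 7 of these fits (at most 0.111, without KPC 3), Musk in 3 of these fits (at most 0.0641, without KPC 2) and Mef2c in 2 of these fits (at most 0.0532, without KPC 4). Fitted without KPC 1, the data gave log2 fold changes of -2.52 for Lrp4 and -2.31 for Mef2c. A call also ended under edgeR on the 8 libraries alone for Casq1 (adjusted p = 0.0911).

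Genes of the extracellular matrix fell together. Of 25 collagen genes 24 fell and none rose, with a median log2 fold change of -2.34, and the collagen genes summed to 236 to 362 CPM in KPC muscle against 828 to 2869.7 CPM in control muscle. Col1a1, the main chain of type I collagen, had 20.9, 1.64, 6.72 and 6.28 CPM in KPC 1 to 4, against 82.8, 179.7, 431 and 109 CPM in control 1 to 4, a log2 fold change of -4.50 ± 0.69 (SE; adjusted p = 0.000551, edgeR). Col3a1 (chromosome 1, 45311538 to 45349706, plus strand) had 33.3, 3.00, 12.4 and 9.54 CPM in KPC muscle, against 134, 392, 768 and 168 CPM in control muscle. KPC 1 was the highest KPC library but below every control, and control 3 was the highest control. The median deviation of collagen genes from the control mean was -1.73, -3.07, -2.73 and -2.41 in KPC 1 to 4. Collagen processing genes fell with them, such as Serpinh1, the collagen chaperone, with 16.4, 10.4, 9.38 and 12.3 CPM in KPC muscle, against 35.9, 47.1, 91.7 and 41.9 CPM in control muscle, and the crosslinker gene Loxl2 (-2.98). Of 28 tested matrix protease, inhibitor and crosslinker genes 11 fell and 1 rose. Of 22 tested proteoglycan and elastic fibre genes 19 fell and none rose, from Fbn1, fibrillin, at -3.02 to Dcn, decorin, at -0.67 among those named. Basement membrane and integrin genes had 11 lower and 1 higher of 24, and tendon genes 10 lower and 1 higher of 15. Markers of fibroblasts and fibro-adipogenic progenitors, the cells that make this matrix, fell as well, 14 of 18 tested with none higher and 1 of the 20 listed, Tcf21, with no count. They summed to 626 to 969.5 CPM in KPC muscle against 1264 to 1882 CPM in control muscle, and Pdgfra, their receptor marker, had 15.5, 9.43, 8.84 and 13.2 CPM in KPC muscle, against 31.4, 25.8, 29.0 and 22.2 CPM in control muscle (log2 fold change -1.21 ± 0.24, SE, with an adjusted p of 0.00175 from edgeR). With KPC 1 left out there were log2 fold changes of -5.37 for Col1a1 and -5.46 for Col3a1. Excluding control 3 gave log2 fold changes of -3.80 for Col1a1 and -3.99 for Col3a1.

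Smooth muscle genes mostly fell, while endothelial genes had no common direction. Of 17 smooth muscle and pericyte genes 11 fell, including Acta2 (13.1, 12, 9.70 and 11.2 CPM in KPC muscle, against 29.7, 21.0, 35.2 and 31.0 CPM in control muscle), and 2 rose, of which Des is also a muscle fibre gene. Of 26 endothelial genes 7 fell and 4 rose, against 22.1% and 27.5% of all genes. Pecam1, present on all endothelium, had 51.5, 95.4, 57.7 and 57.8 CPM in KPC muscle and 52.2, 43.6, 60.2 and 55.7 CPM in control muscle and did not pass the test (edgeR adjusted p = 0.188). Kdr, the VEGF receptor, had 10.2, 23.6, 8.72 and 8.30 CPM in KPC muscle, against 32, 40.4, 45.9 and 47.5 CPM in control muscle, and the apelin pair fell in ligand and receptor, Apln by 4.15 and Aplnr by 2.38 on the log2 scale. Of 15 Schwann cell genes 6 fell. Of 19 tested proliferation genes 7 fell and 3 rose, with Ccnd1, cyclin D1, at 1.97, 0.429, 0.696 and 0.785 CPM in KPC muscle, against 3.97, 10.5, 12.3 and 9.14 CPM in control muscle. When 1 library was left out in turn, the number that rose ranged from 2 without KPC 2 to 6 without KPC 1 for endothelial genes. Over the 8 fits that each left out 1 library, the number that fell ranged from 3 without KPC 3 to 7 without KPC 1 for Schwann cell genes. Scaled by library totals the counts were 2 higher and 10 lower for endothelial genes and 1 higher and 7 lower for proliferation genes. With KPC 1 left out there was a log2 fold change of -3.83 for Ccnd1.

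Interferon response genes were lower in KPC muscle. Of 40 tested 30 fell and 1 rose, with a median log2 fold change of -1.03. Gbp2 and Gbp3, which encode interferon-induced GTPases of a multigene family, and Iigp1 had the smallest p-values. Gbp2 (chromosome 3, 142620602 to 142638008) had 4.43, 2.10, 2.25 and 2.35 CPM in KPC 1 to 4, against 8.95, 7.48, 9.67 and 6.40 CPM in control 1 to 4, a log2 fold change of -1.54 ± 0.25 (SE; adjusted p = 0.000704, edgeR). Gbp3 (chromosome 3, 142560026 to 142573209) had 2.46, 0.662, 1.23 and 0.744 CPM in KPC muscle, against 6.97, 4.76, 6.55 and 4.63 CPM in control muscle, a log2 fold change of -2.17 ± 0.35 (SE; adjusted p = 0.000687, edgeR). Iigp1 had 4.08, 1.87, 2.74 and 1.57 CPM in KPC muscle, against 19.8, 11.6, 14.6 and 9.90 CPM in control muscle. In all 3 genes every KPC library, KPC 1 included, was below every control. Some promoters of the list had a motif in common. The interferon-stimulated response element (TTTC and TTTC, 2 bases apart, either strand) was found in 13 of 28 promoters of the list, 46.4%, against 3.06% of all promoters, and the STAT motif (TTCNNNGAA) in 32.1% against 7.22%. The list was drawn up from genes known to answer interferon, so this share describes the choice. Among promoters of all genes that fell, the element was present in 3.71% and the STAT motif in 7.27%, near the shares of all promoters. The 250 bases before the start of Gbp2 (chr3:142620413-142620662, plus strand) and before the first start site of Gbp3 (chr3:142559794-142560043, plus strand) are given from RefSeq (GRCm38.p6). Capitals mark the interferon-stimulated response element, and neither stretch held a match to the STAT motif. The stretch before the second start site of Gbp3 held no match to either motif. The 250 bases before the start of Lcn2, also examined for the STAT motif, held none.
Gbp2 promoter: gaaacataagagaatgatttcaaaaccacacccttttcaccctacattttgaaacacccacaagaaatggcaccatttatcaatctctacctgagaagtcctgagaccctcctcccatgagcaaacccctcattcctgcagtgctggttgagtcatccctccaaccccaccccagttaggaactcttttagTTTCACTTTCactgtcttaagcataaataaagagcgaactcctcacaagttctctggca
Gbp3 promoter: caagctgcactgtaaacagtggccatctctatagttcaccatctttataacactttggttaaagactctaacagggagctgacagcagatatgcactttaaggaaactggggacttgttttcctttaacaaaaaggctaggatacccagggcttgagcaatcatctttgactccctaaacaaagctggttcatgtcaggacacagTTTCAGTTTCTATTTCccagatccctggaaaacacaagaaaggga
The gene that rose was Trim25, a ubiquitin ligase (0.79). Cxcl9, a chemokine gene induced by interferon gamma and named after its values were seen, was low in all libraries and fell (0.175, 0.117, 0.369 and 0.0413 CPM in KPC muscle, against 0.661, 0.728, 1.54 and 1.13 CPM in control muscle). Genes of MHC class II fell as well. Of 8 tested genes of MHC class II and lymphocytes, 22 being listed, 5 fell and none rose, with summed levels of 22.2 to 75.2 CPM in KPC muscle and 54.5 to 165 CPM in control muscle. Ciita, the master regulator of class II genes, had 0.132, 0.0779, 0.0819 and 0.248 CPM in KPC muscle, against 0.814, 0.971, 2.21 and 0.376 CPM in control muscle. Of 18 tested macrophage genes 4 fell and none rose, a share near that of all genes. Csf1r had 7.46, 6.27, 6.67 and 6.53 CPM in KPC muscle, against 12.7, 11.8, 15.5 and 11.4 CPM in control muscle (log2 fold change -0.93 ± 0.24, SE, with an adjusted p of 0.0065 from edgeR), and the lysozyme gene Lyz2 did not pass the test (edgeR adjusted p = 0.217). Macrophage markers summed to 75.0 to 91.9 CPM in KPC muscle and 85 to 176 CPM in control muscle, and their part in the fall of interferon and class II genes was not tested. Of 15 tested complement genes 6 fell and 1 rose. Blood was a small part of the RNA. The 3 tested erythroid genes all rose, though only 1 did without KPC 2, and summed to 3.44 to 15.2 CPM in KPC muscle and 2.82 to 3.41 CPM in control muscle. White adipocyte genes had 1 gene higher and none lower of 14, Cidec (1.99), with summed levels of 239 to 501 CPM in KPC muscle and 224 to 454 CPM in control muscle. Depending on which library was left out, the number that fell ranged from 1 without KPC 2 to 5 without KPC 1 for class II and lymphocyte genes. The call did not hold with 1 library left out for Trim25 in 2 of these fits (at most 0.0606, without KPC 2) and Cidec without KPC 3 (edgeR adjusted p = 0.0555). Fitted without KPC 3, the data gave a log2 fold change of -3.14 for Cxcl9. The fit without control 3 gave a log2 fold change of -2.35 for Ciita. Among the other settings, the call ended under scaling by library totals for Trim25 (adjusted p = 0.0598) and limma-trend on log2 FPKM for Trim25 (adjusted p = 0.0554).

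Clock genes, antioxidant genes and polyamine genes complete the account. Of 19 circadian clock genes 7 rose and 4 fell. Cry2, a repressor of the clock, had a log2 fold change of 2.10. Per1, which glucocorticoids also induce, had 78.3, 196, 88.4 and 103 CPM in KPC 1 to 4, against 27.4, 27.8, 50.8 and 59.5 CPM in control 1 to 4, and Arntl (BMAL1) had 15.3, 90.5, 58.3 and 45.7 CPM in KPC muscle, against 20.2, 26.2, 20.6 and 11.5 CPM in control muscle. Arntl in KPC 1 lay among the controls. Dbp and Nfil3, output factors of the clock that act in opposition, were named after their values were seen. Dbp had 62.1, 3.66, 6.27 and 6.73 CPM in KPC muscle, against 50.1, 61.4, 60.4 and 113 CPM in control muscle, and Nfil3 45.5, 132, 93.0 and 65.8 CPM in KPC muscle, against 25.2, 19.6, 23.7 and 13.7 CPM in control muscle. The sources used here do not give the hour at which tissue was taken, and a difference in hour between the groups was not tested. Of 33 NRF2 antioxidant genes 16 rose and 4 fell. Gpx3, a secreted glutathione peroxidase, had 291, 425, 377 and 394 CPM in KPC muscle, against 137, 119, 136 and 105 CPM in control muscle, with an adjusted p among the smallest of the table (log2 fold change 1.58 ± 0.14, SE, with an adjusted p of 0.000143 from edgeR). Of 9 polyamine genes with a row 4 rose and 1 fell. Odc1, the first enzyme of the pathway, had 267, 394, 508 and 458 CPM in KPC muscle, against 275, 240.5, 146 and 193 CPM in control muscle (log2 fold change 0.93 ± 0.22, SE, with an adjusted p of 0.00501 from edgeR), and Smox, spermine oxidase, had 514, 34.3, 77.9 and 44.9 CPM in KPC muscle, against 565, 616, 408 and 610.1 CPM in control muscle. Smox in KPC 1 lay within the controls and in KPC 2 to 4 far below them. With all 4 KPC libraries it did not pass the test (edgeR adjusted p = 0.05004), and without KPC 1 it did (4.02e-07, log2 fold change -3.40). Under library totals the split was 6 higher and 6 lower for clock genes and 4 higher and 3 lower for polyamine genes. Leaving out 1 library in turn ended the call of Arntl without KPC 2 (edgeR adjusted p = 0.0511) and Dbp in 7 of these fits (at most 0.116, without control 4). Fitted without KPC 1, the data gave a log2 fold change of -3.69 for Dbp. Among the other settings, the call ended under edgeR on the 8 libraries alone for Dbp (adjusted p = 0.0922). A call was made under scaling by library totals for Smox (adjusted p = 0.0265) and limma-trend on log2 FPKM for Smox (adjusted p = 0.00469).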

How the data were processed

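Bulk RNA was extracted with a miRNeasy kit and made into KAPA mRNA HyperPrep libraries sequenced as read pairs on a NovaSeq instrument, per the labels' protocols. The authors deposited raw counts per gene symbol for 12 muscle libraries, and a second table of log2 FPKM values, also made by the authors. The submitters' processing notes name the mouse build mm10 and the tools edgeR 3.12.1, Subread 1.5.1 with featureCounts, STAR 2.5 and FastQC 0.11.5. The sources used here do not give the annotation, the strand setting or any filter. Among the 6182 genes whose lowest count was 200 or more, deposited log2 FPKM tracked the counts to within 0.00181 per gene, with a library scaling within 0.0557 of TMM and up to 0.246 from library totals.

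The main test was edgeR's quasi-likelihood F test (edgeR 4.0.16, R 4.3.3) over all 12 muscle libraries and 3 groups, with TMM scaling, filterByExpr (minimum count 10, minimum total 15), and Benjamini-Hochberg adjustment over 12760 genes with a threshold of 0.05. CPM values use TMM-scaled library sizes and are listed by library number, 1 to 4, within each group. Standard errors are the log2 fold change divided by the square root of F. Named genes are the 12 highest and 12 lowest log2 fold changes past the threshold among genes with a symbol other than a gene model whose groups do not overlap and whose higher group averages at least 2 CPM; the 3 smallest p-values and the highest mean CPM of each list described; and a fixed set of cachexia and muscle genes. Lists of up to 14 genes may be named whole, and genes outside the rule are said to be named after their values were seen. The comparison and the 71 gene lists were chosen with earlier results of these data known. On simulated counts, with 200 changed genes per set, the fit called 52.9% of genes changed 2-fold, 15.3% of those changed 1.5-fold and 0.0321% of unchanged genes. Alternatives were RLE scaling, library totals, no filter, DESeq2 1.42.0, limma-trend (limma 3.58.1) on the deposited log2 FPKM (their pseudocount is not stated), the 8 libraries alone, and leaving out each library. No 2 libraries of a group were copies of one another. The counts column of KPC 1 carries an additional final digit in its animal name that the sample title lacks. The labels do not say which counting rule was used for genes with near-identical copies, such as Hspa1a and Hspa1b, and Mt1 and Mt2. Counts of overlapping genes may likewise be shared. Not analysed here were Amd1, Epcam, Gdf15 and genes encoded in the mitochondrion.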

Additional observations from a re-analysis of the deposited data

Results flagged for a closer look

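Libraries far from the rest of their group were looked for in both groups of each of the 162 genes named in the text and in the KPC medians of 71 lists, 395 sets of 4 values in all. The measure was the gap from the highest or lowest library to its neighbour as a share of the group's range, and 51 sets were above Dixon's critical value for 4 values, and chance gives about 1 in 20. In KPC muscle 27 genes were above it, 25 of them through KPC 1, which was the lowest KPC library for Cebpd (0.884), Ddit4 (0.978), Eif4ebp1 (0.8293), Fbxo32 (0.917), Gadd45a (0.839), Hsp90ab1 (0.835), Mylk2 (0.833), Psmd4 (0.849), Sqstm1 (0.902), Stat3 (0.896), Trim63 (0.848) and Usp14 (0.907). KPC 1 was the highest KPC library for Cox7a1 (0.877), Cycs (0.854), Dlat (0.889), Esrra (0.89), Fam167a (1.0), Gbp2 (0.85), Kera (0.865), Lrp4 (0.846), Ndufs1 (0.85), Nmrk2 (0.836), Pdk2 (0.908), Perm1 (0.88) and Tfrc (0.857). The other 2 were Hspa1b through a low KPC 3 (0.957) and Slc39a10 through a low KPC 2 (0.891). Of the list medians 12 were above it. KPC 1 was lowest for 19S proteasome regulatory subunits (0.942), lysosomal enzymes, membrane proteins and proton pump (0.832), interleukin-6 family receptors and STAT3 signalling (0.874), translation initiation and elongation factors (0.866), ribosome biogenesis factors and RNA polymerase I (0.902) and cytosolic aminoacyl-tRNA synthetases (0.884). It was highest for glycolysis and lactate (0.91), tricarboxylic acid cycle enzymes and shuttles (0.903), complex I subunits (0.954) and ATP synthase nuclear-encoded subunits (0.96). For the other 2 lists, KPC 4 was lowest for NAD synthesis and use (0.839) and KPC 2 was highest for fatty acid uptake, oxidation and PPAR targets (0.855). Among control libraries, 12 genes were above it. Control 3 was the highest control for Fam167a (0.837), Hspa1a (0.904), Hspa1b (0.874) and Kera (0.884) and the lowest for Lifr (0.835). Control 1 was the highest control for Acadsb (0.898) and Cebpd (0.993) and the lowest control for Myh1 (0.944). Control 2 was the lowest control for Doc2b (0.888) and Trim25 (0.898). Control 4 was the highest control for Ubb (0.901) and the lowest control for Cast (0.839).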

How the results depend on the processing

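The number of genes called in KPC against control muscle was 6336, and it ranged from 5137 to 7993 with 1 library left out in turn and from 5423 to 6668 under the other 6 alternatives. The number higher was 3512, and ranged from 3001 to 4069 with 1 library left out. The number lower was 2824, and ranged from 2098 to 3924. Scaling by library totals gave 2308 higher and 4064 lower, a split of 36.2% to 63.8% against 55.4% to 44.6%. The deposited log2 FPKM values under limma-trend gave 46.9% to 53.1%. Of the 162 genes named in the text 142 passed the test, and where an adjusted p was given all 142 kept their direction over the 14 alternatives and 129 also kept their call. DESeq2 gave no adjusted p for 7 named genes (Casq1, Dbp, Hspa1b, Igfbp5, Pgam2, Smad3 and Smox). Of 2257 values of named genes under the alternatives 51 lost a call and 17 gained one. Library totals ended the calls of Capn2, Pdk2 and Trim25, and Myh2 passed the test under 5 of the 6 settings that keep every library of the comparison. Of 1988 list counts, 205 fell and 79 rose by more than 1.5 times. Reversals were seen only among genes that had not passed the test, and the cause was not tested. Nfe2l1 was at -0.0821 under library totals. Socs3 was at -0.0074 under RLE scaling, -0.15 under library totals, -0.0115 under DESeq2, -0.0217 under limma-trend and -0.0039 with the 8 libraries alone. With 1 library left out the log2 fold changes ranged from -0.31 to 0.12 for Ckm, -0.0426 to 0.37 for Hdac4, -0.61 to 0.29 for Myh7, -0.51 to 0.60 for Myog and -0.25 to 0.33 for Socs3. No paired analysis was possible because the labels give each mouse a number of its own that no other muscle library shares. Genes with few counts, such as Cxcl9 and Ciita, have the least precise folds. Of genes changed 1.5-fold in simulated data 15.3% were called, with 200 changed genes per set. In the real data 49.7% of tested genes were called. The adjustment of p depends on that share, so the simulated rates need not hold here, and smaller changes may be missed.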

Other observations

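KPC 1 was not closer to the controls for every gene. Among the 3336 genes that differed at least 2-fold without it, it showed 80% or more of the change seen in KPC 2 to 4 for 319 genes (9.56%), 52 of them higher and 267 lower, and lay on the other side of the control mean for 505 (15.1%). The 3336 genes were chosen by their difference in KPC 2 to 4, so these numbers depend in part on the choice. The genes below were named after their values were seen. Arrdc2, which encodes an arrestin-domain protein, had 153, 204, 187 and 181 CPM in KPC 1 to 4, against 17.5, 17.7, 29.4 and 41.6 CPM in control 1 to 4 (log2 fold change 2.77, SE 0.34, edgeR adjusted p = 0.00033). Tfcp2l1, a grainyhead-like transcription factor, had 83.5, 155, 96.1 and 87.4 CPM in KPC muscle, against 25.0, 35.6, 17.4 and 26.1 CPM in control muscle. In both genes KPC 1 lay with the other KPC libraries. Among genes that fell, Col5a3, a minor collagen chain, had 9.21, 9.19, 7.78 and 9.17 CPM in KPC muscle, against 17.8, 47.2, 65.6 and 25.7 CPM in control muscle. S1pr3, a receptor for sphingosine-1-phosphate, had 1.40, 0.935, 2.13 and 1.53 CPM in KPC muscle, against 5.29, 6.07, 4.34 and 6.59 CPM in control muscle. These 4 genes had no overlap between the groups.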
